A study of Equus caballus with 10 samples.

Results

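The let-7 and miR-98 family was followed through RNA that had been recovered from equine joint cells after exposure to extracellular vesicles (EVs). Its members were taken by name as the 7 miRNAs eca-let-7a, eca-let-7c, eca-let-7d, eca-let-7e, eca-let-7f, eca-let-7g and eca-miR-98, of 239 equine miRNAs counted in all. Together they held 1.88% to 7.37% of the miRNA counts of a library that belonged to a group. Donor chondrocytes, the cells of cartilage, and donor synoviocytes, the cells of the joint lining, were grown with 5-ethynyl uridine (5-EU), a uridine analogue that is built into newly made RNA and can be pulled out by click chemistry. Vesicles were collected after 48 h, pooled by donor cell type and given to unlabelled cells of the other type for 24 h, and the RNA carrying the label was captured and its small RNA sequenced.

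The first group was 5 libraries of EV-recipient chondrocytes, cultured at 5% oxygen and exposed to vesicles from synoviocytes of 9 horses. The second was 4 libraries of EV-recipient synoviocytes, cultured at 25% oxygen and exposed to vesicles from chondrocytes of 8 horses. Each library came from cells of a different recipient horse, whereas all libraries of a group received one pool of vesicles. The synoviocytes also received more vesicles per volume of medium, by the study's account. Recipient cell type, vesicle source, vesicle dose and oxygen changed together and cannot be told apart. A lower level of a miRNA per vesicle and a smaller number of vesicles taken up cannot be told apart in these bulk libraries either. One further synoviocyte library is marked SynoviocyteNEG in the deposited tables and stands for EV-recipient control synoviocytes, whose vesicles came from chondrocytes grown without the label. The sample labels do not mark it as a control, so it entered no test and its values are given on their own.

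The let-7 miRNAs are among the most conserved small RNAs of animals. They share a seed, the short stretch near the 5′ end that pairs with target mRNAs, and miR-98 carries the same seed. In mammals they are known to hold back growth-promoting genes such as HMGA2, MYC and the RAS genes, and the RNA-binding protein LIN28 blocks their maturation. In mouse growth plate cartilage, let-7 is known to sustain chondrocyte proliferation. Several members lie in shared gene clusters in vertebrates: let-7a beside miR-100 and miR-125b, let-7c beside miR-99a and miR-125b, and let-7e beside miR-99b and miR-125a.

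The mature sequences of let-7c, let-7e and let-7f each differ from that of let-7a by a single base, and the authors allowed 1 mismatch when reads were matched to equine miRNAs. The split of counts between these members is therefore uncertain, while the family sum does not depend on it. No let-7 miRNA beyond the 7 rows was counted, so reads of any other let-7 could not appear under their own name. All levels are in RPM, the count of a miRNA per 1000000 miRNA counts of its library. Mature miRNAs are of nearly equal length, so RPM can be set side by side between members, although ligation efficiency can differ between sequences and was not tested.

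Depth ranged from 4891 to 444408 miRNA counts in the EV-recipient chondrocytes, from 17151 to 436475 in the EV-recipient synoviocytes, and was 20330 in the library marked SynoviocyteNEG. A count of 0 allowed up to 613 RPM in EV-recipient chondrocyte replicate 1, the shallowest library, and up to 6.75 RPM in replicate 2. Counts of miRNA per spike-in count, a measure of how much miRNA entered the library, were 0.0134 in EV-recipient chondrocyte replicate 1, 0.0634 in EV-recipient synoviocyte replicate 4, 0.0786 in SynoviocyteNEG and 0.239 to 2.49 in the other 7 libraries. The cartilage markers eca-miR-140-5p and eca-miR-140-3p summed to 204 to 3805 RPM in the EV-recipient chondrocytes and 0 to 182 RPM in the EV-recipient synoviocytes, with both at 0 in synoviocyte replicate 4, and to 787 RPM in SynoviocyteNEG. The blood markers eca-miR-451, eca-miR-144 and eca-miR-486-5p, all 3 of them counted, summed to 16967 RPM in synoviocyte replicate 4 against 27.5 to 1890 RPM in the other 3 synoviocyte libraries and 45.7 to 1022 RPM in the chondrocytes. EV-recipient chondrocyte replicate 1 and EV-recipient synoviocyte replicate 4 therefore stand apart, and results that rest on either are given with and without it.

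Summed over the 7 members, the family reached 41096, 54601, 23004, 50893 and 30718 RPM in EV-recipient chondrocyte replicates 1 to 5. In EV-recipient synoviocyte replicates 1 to 4 it reached 65140, 66985, 73693 and 18833 RPM. The first 3 synoviocyte libraries lay above all 5 chondrocyte libraries, and replicate 4 lay below all of them. The mean (SD) was 40062 (13305) RPM in the chondrocytes (n = 5) and 56163 (25157) RPM in the synoviocytes (n = 4), a log2 ratio of the means of 0.49. That difference was smaller than the SD of the synoviocyte group, which replicate 4 widened, and larger than the SD of the chondrocyte group. With synoviocyte replicate 4 left out the log2 ratio was 0.78. The groups then did not overlap, which follows from leaving out the only library that made them overlap. In that setting 26.5% of the 49 tested miRNAs had RPM without overlap. The low family level in replicate 4 went with its high blood markers and low miRNA input, and their part in it was not tested.

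SynoviocyteNEG held 13920 RPM of family miRNA, or 1.39% of its counts with a Wilson interval of 1.24% to 1.56%. This was the lowest family share of the 10 libraries, just under that of EV-recipient synoviocyte replicate 4, at 1.88% with an interval of 1.69% to 2.10%. The intervals do not overlap, but they cover counting error only and not the difference between horses. Relative to the spike-ins, SynoviocyteNEG had 1.09 family counts per 1000 spike-in counts, against 0.551 in chondrocyte replicate 1, 1.19 in synoviocyte replicate 4 and 7.14 to 162 in the other labelled libraries. The family signal of SynoviocyteNEG was thus of the size seen in the 2 labelled libraries with the least miRNA.

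**Figure D1:**
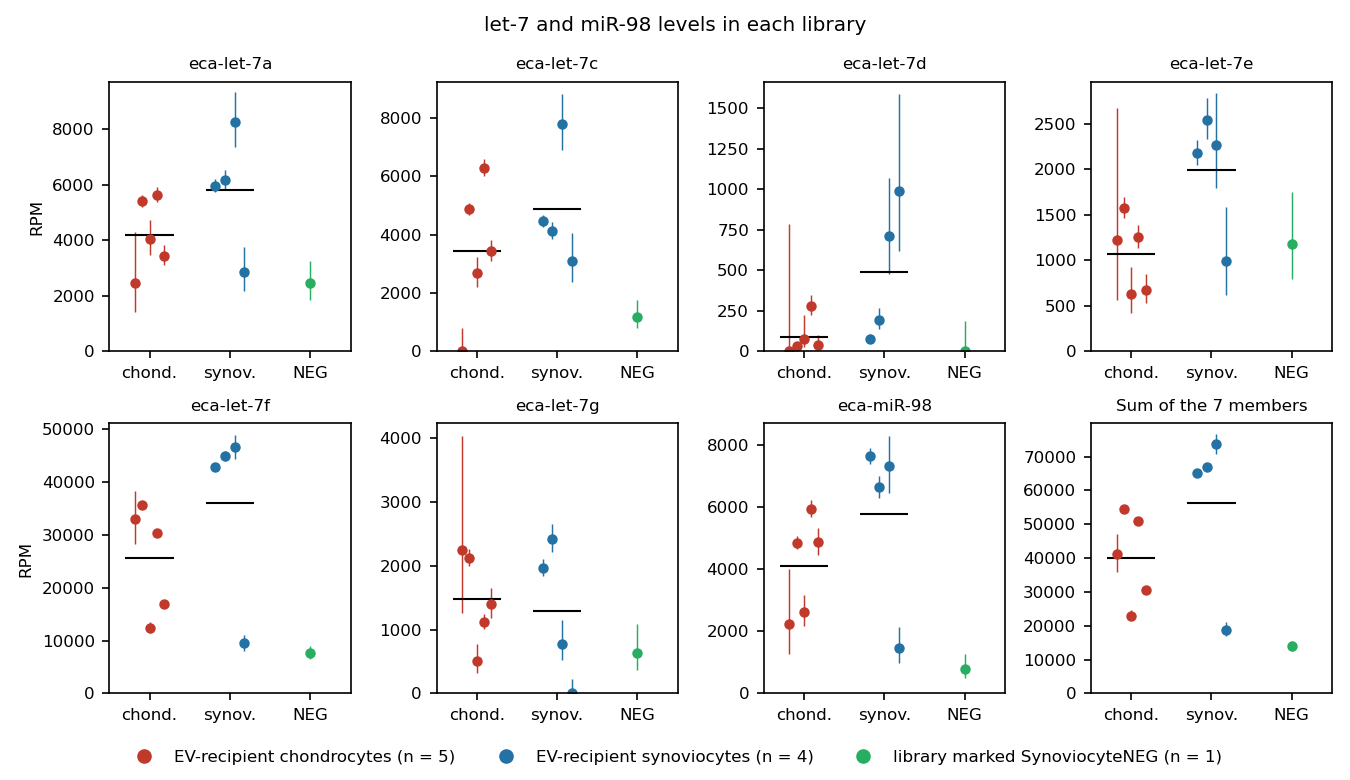
Level of each family member and of their sum in RPM (vertical axis, a separate linear scale per panel) in each library, with libraries as points, Wilson 95% intervals as vertical lines and group means as horizontal lines. Of the EV-recipient synoviocyte libraries, 3 sit above the chondrocyte libraries for the sum, at 65140 to 73693 RPM, and replicate 4 sits at 18833 RPM.

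eca-let-7f was the main member in every library. It was at 32918, 35715, 12447, 30382 and 16855 RPM in EV-recipient chondrocyte replicates 1 to 5, and at 42841, 44898, 46577 and 9446 RPM in EV-recipient synoviocyte replicates 1 to 4. The first 3 synoviocyte libraries exceeded every chondrocyte library, and the fourth was below them all. In the fit over 49 miRNAs, eca-let-7f was higher in the synoviocytes by a log2 fold change of 0.64 (SE 0.43, edgeR adjusted p = 0.393), which did not pass the threshold of 0.05. In SynoviocyteNEG it was at 7673 RPM, below each of the 9 labelled libraries.

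eca-let-7a, the member whose precursors are spread over the most clusters in mammals, came next. Its levels were 2453, 5421, 4057, 5640 and 3448 RPM in the chondrocytes and 5964, 6173, 8274 and 2857 RPM in the synoviocytes. Again only synoviocyte replicate 4 fell within the chondrocyte range. The log2 fold change was 0.58 (SE 0.36, edgeR adjusted p = 0.352), and SynoviocyteNEG held 2459 RPM.

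eca-miR-98, which lies beside a let-7f precursor on the mammalian X chromosome, was at 2249, 4851, 2620, 5949 and 4878 RPM in the chondrocytes. In the synoviocytes it was at 7652, 6636, 7314 and 1458 RPM, so that replicates 1 to 3 were above every chondrocyte library and replicate 4 was below them. Its log2 fold change was 0.60 (SE 0.46, edgeR adjusted p = 0.475). SynoviocyteNEG had the lowest eca-miR-98 level of all 10 libraries, 787 RPM.

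eca-let-7c differed in kind, because its groups overlapped whether or not synoviocyte replicate 4 was counted. It was at 0, 4883, 2671, 6272 and 3428 RPM in the chondrocytes and at 4461, 4119, 7778 and 3090 RPM in the synoviocytes. The 0 in chondrocyte replicate 1 allowed up to 613 RPM, which was below the level in every other chondrocyte library. The log2 fold change was 0.56 (SE 0.61, edgeR adjusted p = 0.648), or 0.26 without that library. With limma on log2 RPM values it was 2.56 and 1.90 at pseudocounts of 1 and 10 (adjusted p = 0.557 and 0.539). SynoviocyteNEG held 1181 RPM.

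eca-let-7e had the largest log2 fold change of the 6 tested members, 1.05 (SE 0.54, edgeR adjusted p = 0.311). It was at 1227, 1573, 630, 1254 and 669 RPM in the chondrocytes and at 2181, 2543, 2262 and 991 RPM in the synoviocytes. Once more, replicates 1 to 3 of the synoviocytes were above every chondrocyte library and replicate 4 was among them. SynoviocyteNEG, at 1181 RPM, was within the chondrocyte range. At an unadjusted p under 0.05, eca-let-7e also passed without chondrocyte replicate 1 in edgeR (log2 fold change 1.02, adjusted p = 0.210), where it was 1 of 7 members against 22.2% of the 81 miRNAs then tested.

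eca-let-7g showed no common direction. It was at 2249, 2124, 504, 1117 and 1399 RPM in the chondrocytes and at 1966, 2424, 775 and 0 RPM in the synoviocytes, where a 0 in replicate 4 allowed up to 175 RPM. The groups overlapped throughout, and the log2 fold change was 0.04 (SE 0.82, edgeR adjusted p = 0.990). Its sign turned with the scaling and with single libraries left out. With library size alone it was −0.07, and leaving out 1 library gave values from −0.32 to 0.40. SynoviocyteNEG held 639 RPM.

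eca-let-7d was the scarcest member. It had 0, 15, 3, 80 and 4 counts in the chondrocytes (0, 33.8, 75.6, 281 and 40.6 RPM) and 33, 37, 23 and 17 counts in the synoviocytes (75.6, 192, 713 and 991 RPM), with 0 counts in SynoviocyteNEG, which allowed up to 148 RPM. The highest values came from the 2 shallower synoviocyte libraries, and the groups overlapped. It did not pass the filter on low values. In edgeR fits that kept it, the log2 fold change was 2.12 (SE 1.00, adjusted p = 0.279) with the filterByExpr filter, 2.34 (SE 1.27, adjusted p = 0.259) with no filter and 2.10 (SE 1.13, adjusted p = 0.326) without chondrocyte replicate 1.

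By group mean, the order of the levels in the EV-recipient chondrocytes was eca-let-7f, eca-let-7a, eca-miR-98, eca-let-7c, eca-let-7g, eca-let-7e and eca-let-7d, at 25663, 4204, 4109, 3451, 1479, 1070 and 86.2 RPM. In the EV-recipient synoviocytes the means were 35940, 5817, 5765, 4862, 1994, 1291 and 493 RPM, with eca-let-7e ahead of eca-let-7g. Only eca-let-7f stood clear of the next member in both groups, since its lowest chondrocyte and synoviocyte levels, 12447 and 9446 RPM, exceeded the highest eca-let-7a levels there, 5640 and 8274 RPM. The levels of eca-let-7a, eca-miR-98 and eca-let-7c overlapped in both groups, as did those of eca-let-7g and eca-let-7e. In the chondrocytes the highest eca-let-7d level, 281 RPM, was below every eca-let-7e and eca-let-7g level, whereas in the synoviocytes eca-let-7d overlapped with both.

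Across the group comparison, 6 of the 7 members passed the filter and could be tested. None of the 6 reached an adjusted p under 0.05 in edgeR, against 8.16% of the 49 miRNAs tested (eca-miR-31, eca-miR-143, eca-miR-27b and eca-miR-23b, named after their values were seen). At an unadjusted p under 0.05 edgeR likewise called 0 of 6, against 18.4% of all tested. DESeq2 called 1 of 6 at that level, eca-let-7e, against 20.4%. limma called 0 of 6 with either pseudocount, against 20.4% on log2(RPM + 1) and 22.4% on log2(RPM + 10). The RPM of the groups overlapped for all 6 members, while 16.3% of tested miRNAs had no overlap.

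In direction, all 6 tested members had a log2 fold change above 0, as did 55.1% of all tested miRNAs. Their median was 0.59, beside 0.06 over the 49. Members share a vesicle pool, libraries and part of their sequence, so their common direction is not 6 separate observations. Against spike-in counts the median of all tested miRNAs moved by −0.19, and eca-let-7c then stood at −0.09 while the other 5 stayed above 0. eca-let-7g was below 0 in several further settings.

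With EV-recipient synoviocyte replicate 4 left out, the picture for single members changed. In edgeR, eca-let-7a, eca-let-7e, eca-let-7f and eca-miR-98 then had an unadjusted p under 0.05, 4 of 6 against 32.7% of the 49 miRNAs, and the same 4 of 6 had RPM without overlap, against 26.5%. The lack of overlap follows from leaving out the only library that made the groups overlap for these 4. The unadjusted calls rest on the same choice, so neither count is separate support for a difference. Their log2 fold changes were 0.79 (SE 0.34), 1.25 (SE 0.55), 0.95 (SE 0.33) and 0.91 (SE 0.37). None of the 6 passed after adjustment, with edgeR adjusted p = 0.112 for eca-let-7f, 0.134 for eca-miR-98 and 0.143 for eca-let-7a and eca-let-7e, against 6.12% of tested miRNAs that did. eca-let-7c moved from 0.56 to 0.70 and eca-let-7g from 0.04 to 0.40, and neither passed (edgeR adjusted p = 0.535 and 0.722).

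**Figure D2:**
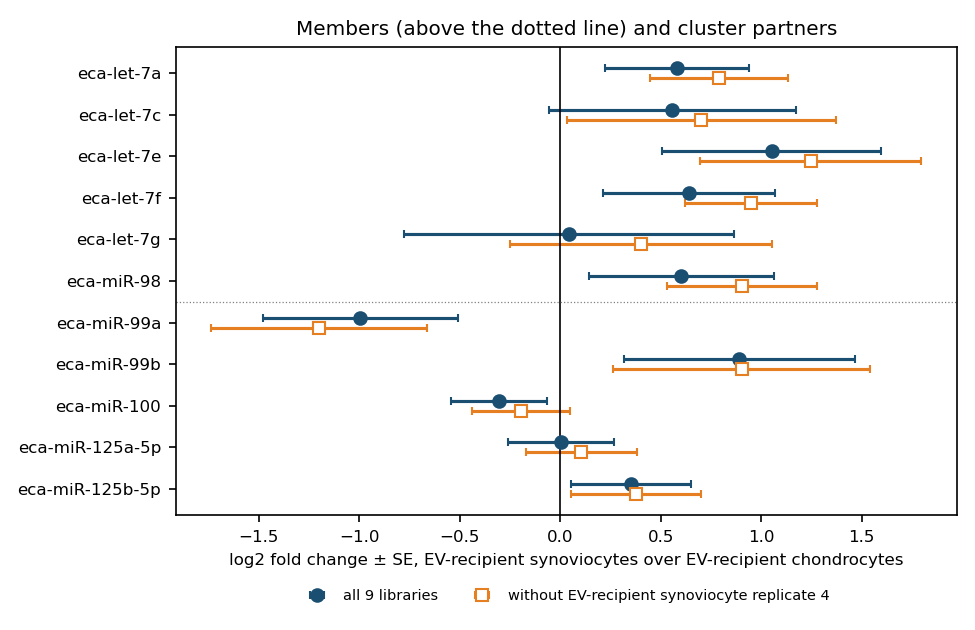
Log2 fold change (horizontal axis, EV-recipient synoviocytes over EV-recipient chondrocytes) with its SE for the tested family members and cluster partners, from all 9 libraries (filled circles) and without EV-recipient synoviocyte replicate 4 (open squares). The 6 members lie at 0.04 to 1.05 with all libraries and at 0.40 to 1.25 without that one.

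Within the family, the larger members had similar mean shares in both groups when every labelled library was counted. eca-let-7f made up 80.1%, 65.4%, 54.1%, 59.7% and 54.9% of family counts in chondrocyte replicates 1 to 5 and 65.8%, 67.0%, 63.2% and 50.2% in synoviocyte replicates 1 to 4. Its mean share was 62.8% (SD 10.7, n = 5) and 61.5% (SD 7.75, n = 4), a difference smaller than either SD. These means rest on chondrocyte replicate 1 and synoviocyte replicate 4, which held the extreme shares. Without them the shares ran from 54.1% to 65.4% in the chondrocytes. In the synoviocytes they then ran from 63.2% to 67.0%, in the upper part of that range and beyond it. eca-let-7a held a mean share of 11.2% in both groups, and eca-miR-98 held 10.7% and 9.83%. Without the same libraries, eca-let-7a shares ran from 9.93% to 17.6% in the chondrocytes and from 9.16% to 11.2% in the synoviocytes. The highest eca-let-7f share came from chondrocyte replicate 1, whose family count was 201. SynoviocyteNEG had an eca-let-7f share of 55.1%, within the range of the labelled libraries.

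eca-let-7e was the only member whose shares did not overlap between groups. Its share of the family was 2.99%, 2.88%, 2.74%, 2.46% and 2.18% in chondrocyte replicates 1 to 5 and 3.35%, 3.80%, 3.07% and 5.26% in synoviocyte replicates 1 to 4, with replicate 4 included. The gap between the highest chondrocyte and the lowest synoviocyte share was narrow, and the former rested on 6 counts of eca-let-7e. Of the 49 tested miRNAs, 6.12% had a ratio to the family sum without overlap between groups, namely eca-let-7e, eca-miR-181a and eca-miR-27b (the last pair named after their values were seen). SynoviocyteNEG, in which 24 of 283 family counts were eca-let-7e, had the highest share, 8.48%.

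The other small members overlapped between groups. eca-let-7g held a mean share of 3.66% (SD 1.45, n = 5) in the chondrocytes and 1.92% (SD 1.69, n = 4) in the synoviocytes, where it ran from 0% to 3.62%. The mean share of eca-let-7d was 0.215% (SD 0.225) and 1.66% (SD 2.43), the latter raised by replicate 4. eca-let-7d made up 5.26% of the family in synoviocyte replicate 4 and at most 0.967% elsewhere. eca-let-7c took 0 of 12 counts of eca-let-7c plus eca-let-7a in chondrocyte replicate 1, which a Wilson interval limits to 24.2%, against 32.4% to 52.7% in the other 9 libraries. It passed 50% only in chondrocyte replicate 4 and synoviocyte replicate 4, at 52.7% and 52.0%.

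**Figure D3:**
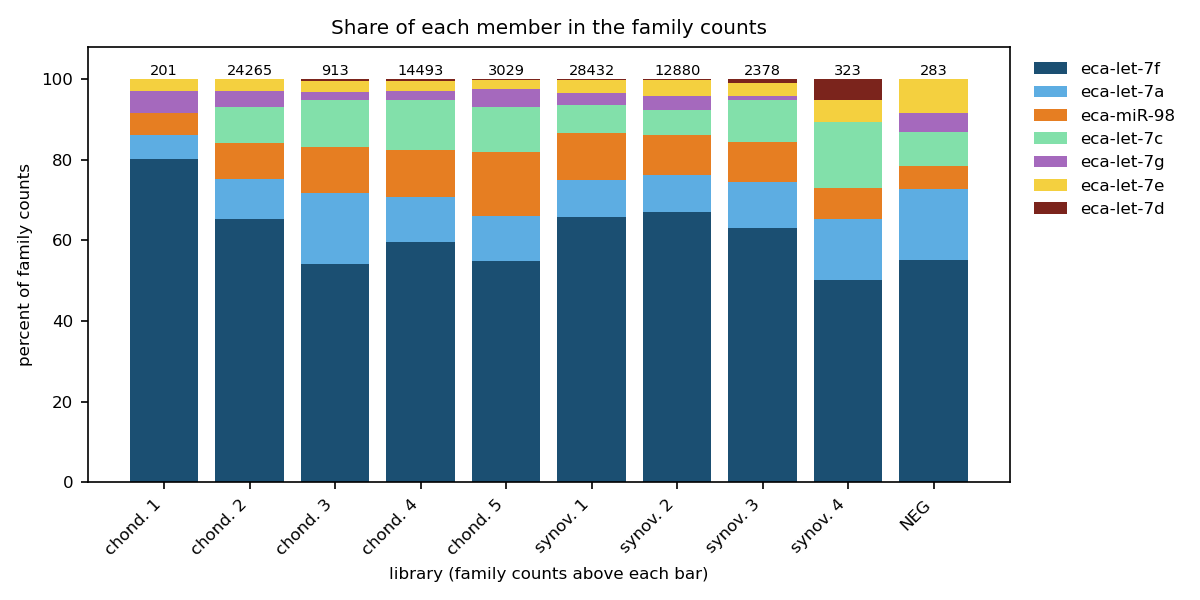
Percent of family counts (vertical axis, stacked bars from 0) taken by each member in each of the 10 libraries, with the number of family counts above each bar. eca-let-7f fills 50.2% to 80.1% of every labelled bar, and the bars of chondrocyte replicate 1 and synoviocyte replicate 4 rest on 201 and 323 counts.

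The neighbours of let-7 genes in the vertebrate clusters were compared next. miR-99a, miR-99b and miR-100 form a family known in mammals to repress MTOR, and miR-125a and miR-125b are the vertebrate relatives of the worm miRNA lin-4. Of the 6 partners listed, 5 passed the filter and 3 of these 5 had a log2 fold change above 0, with a median of 0.00. None of the 5 passed in edgeR, adjusted or not, nor at an unadjusted p in DESeq2 or limma.

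eca-miR-99a, the neighbour of let-7c, pointed the other way from it. It was at 4907, 37022, 33259, 41731 and 22422 RPM in the chondrocytes and at 9047, 9829, 15185 and 17259 RPM in the synoviocytes. Every synoviocyte library was below chondrocyte replicates 2 to 5, and only the shallow replicate 1 was lower still. The log2 fold change was −0.996 (SE 0.49, edgeR adjusted p = 0.293). Without chondrocyte replicate 1 it was −1.31 (edgeR adjusted p = 0.00938), 1 of 5 partners called against 9.88% of the 81 miRNAs then tested. With all 9 libraries its adjusted p was under 0.05 only with no filter on low counts (−1.08, edgeR adjusted p = 0.0300). SynoviocyteNEG held 39990 RPM of eca-miR-99a, in the upper part of the chondrocyte range. The mature sequences of eca-miR-99a and eca-miR-100 are closely similar, and a mismatch was allowed when reads were matched. The split of counts between eca-miR-99a and eca-miR-100 is therefore uncertain as well, and its effect on their values was not tested.

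eca-miR-99b, beside let-7e, had a log2 fold change of 0.89 (SE 0.58, edgeR adjusted p = 0.379), against 1.05 for eca-let-7e. Without chondrocyte replicate 1, where eca-miR-99b had 0 counts, the values were 0.66 (edgeR adjusted p = 0.259) and 1.02. eca-miR-100, beside let-7a, was at −0.30 (SE 0.24, adjusted p = 0.483). eca-miR-125b-5p was at 0.35 (SE 0.30, adjusted p = 0.531) and eca-miR-125a-5p at 0.00 (SE 0.26, adjusted p = 0.990), the latter turning to −0.15 with library size alone. eca-miR-125a-3p, at 0 to 496 RPM, did not pass the filter. None of these 4 tested partners passed the threshold.

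Ratios within a library do not depend on how libraries are scaled to each other. The log2 ratio of eca-let-7c to eca-miR-99a, with 0.5 added to each count, was −5.61, −2.92, −3.63, −2.73 and −2.71 in chondrocyte replicates 1 to 5 and −1.02, −1.25, −0.96 and −2.47 in synoviocyte replicates 1 to 4. The groups did not overlap, with or without chondrocyte replicate 1, though the gap from −2.71 to −2.47 was narrow. Their means were −3.52 (SD 1.23, n = 5) and −1.43 (SD 0.71, n = 4), and their medians −2.92 and −1.14. The −5.61 of chondrocyte replicate 1 rested on 0 counts of eca-let-7c, so the 0.5 added set its size, and it lowered the chondrocyte mean. Among the ratios of eca-let-7c to each of the other 48 tested miRNAs, 10.4% had no overlap, and the others in that set were eca-miR-31, eca-miR-27b, eca-miR-196b and eca-miR-23b, named after their values were seen. SynoviocyteNEG, at −5.05, was below all chondrocyte libraries except replicate 1. The ratio of eca-let-7c to eca-miR-99a rests on the uncertain split of counts in both families, and the effect of that split was not tested.

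For eca-let-7a over eca-miR-100 the log2 ratio ran from −5.17 to −3.42 in the chondrocytes and from −3.66 to −2.76 in the synoviocytes. The ratio of eca-let-7e to eca-miR-125a-5p ran from −4.50 to −3.53 and from −3.66 to −2.72. Both ratios were higher in the synoviocytes by mean, by 0.87 and 1.03 on the log2 scale, and overlapped between groups through synoviocyte replicate 4. The ratio of eca-let-7e to eca-miR-99b showed no such order, at −1.50 to 3.70 in the chondrocytes and −1.25 to 0.41 in the synoviocytes. The value of 3.70 came from chondrocyte replicate 1, where eca-miR-99b had 0 counts.

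**Figure D4:**
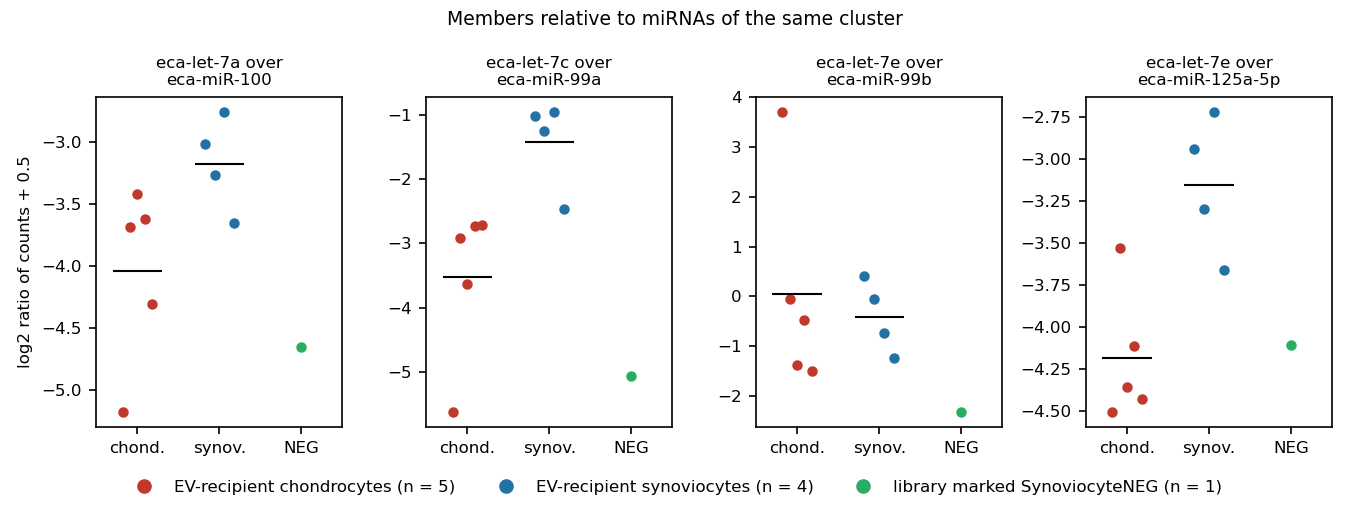
Log2 ratio of counts, 0.5 added to each (vertical axis, a separate scale per panel), of a family member to a miRNA of the same gene cluster in each library, with points for libraries and lines for group means. The ratio of eca-let-7c to eca-miR-99a lies at −5.61 to −2.71 in the chondrocytes and −2.47 to −0.96 in the synoviocytes.

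The miRNAs that kept the steadiest proportion to the family sum over the 9 libraries were found as those with the smallest SD of the log2 ratio of their RPM to the family RPM, among 35 miRNAs outside the family that passed the filter and were counted in every library. They were eca-miR-423-5p (SD 0.57), eca-miR-125a-5p (0.62), eca-miR-16 (0.64), eca-miR-100 (0.65) and eca-miR-26a (0.65), beside a median SD of 0.98 over the 35. Both cluster partners among them thus had SDs close to that of the first, but their mean log2 ratios were lower in the synoviocytes. These means were −1.03 in the chondrocytes and −1.55 in the synoviocytes for eca-miR-125a-5p, and 0.81 and −0.01 for eca-miR-100. All ratios share the libraries and the family sum, so the order is a description only. In SynoviocyteNEG the log2 ratio was −2.29 for eca-miR-423-5p, against means of −3.91 in the chondrocytes and −3.85 in the synoviocytes, and the other 4 were also higher there than either group mean.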

How the data were processed

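Small RNA libraries were made with the RealSeq Biofluids kit after click capture of 5-EU-labelled RNA, with spike-in standards added. Per the study's methods, the authors trimmed reads with cutadapt 3.3, kept those of at least 17 nucleotides, and mapped them with Bowtie 1.3.0 and miRDeep2 against EquCab3.0 (up to 2 mismatches) and then equine miRBase entries (up to 1). The authors deposited raw counts of 239 miRNAs and 8 spike-ins per library. RPM values, also deposited, equalled each count over the library's miRNA total within 0.0472%. Levels were recomputed on that scale from the counts.

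Counts were tested with edgeR 4.0.16 in R 4.3.3 (quasi-likelihood, TMM factors, group as the only term, spike-ins left out of library size), with Benjamini-Hochberg adjustment over the 49 miRNAs that reached 2045 RPM, which is 10 counts in the smallest library, in at least 2 of 9 libraries. SE is the log2 fold change over the square root of F. The fit was tested on simulated data. Intervals are Wilson 95% intervals from scipy 1.17.1, and a count of 0 allows up to 3 counts. Both cover counting error only, since PCR copies are not independent molecules. DESeq2 1.42.0, limma 3.58.1, other scalings and filters, an exact permutation test, a replicate block and leaving out each library served as alternatives. Replicates of a group are separate horses. Replicates with the same number came from different horses, and their deviations from the group means correlated at −0.378 to 0.049, so the numbers do not pair libraries. Replicates of a group differed by more than sampling noise, with a chi-square per degree of freedom of at least 11.9.

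The members, the cluster partners and the marker lists were chosen with earlier results of these data known. Named miRNAs were all members, all listed partners, the 5 miRNAs most proportional to the family sum and the markers as sums. Of the marker lists not used in the results, the mesenchymal pair eca-miR-143 and eca-miR-145 summed to 1713 to 16152 RPM in the chondrocytes and 11213 to 76327 RPM in the synoviocytes. The leukocyte list summed to 0 to 2658 and 0 to 217 RPM, the endothelial list to 0 and 0 to 93.0 RPM, and eca-miR-122 of liver to 0 to 470 and 0 RPM. The 16152 and 2658 RPM both came from EV-recipient chondrocyte replicate 1, and the leukocyte list was at 0 in the other chondrocyte libraries.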

Additional observations from a re-analysis of the deposited data

Results flagged for a closer look

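Within the groups, 30 sets of values were examined for a library set apart from the others of its group by Dixon's criterion. The criterion marks about 1 in 20 sets of independent, normally distributed values. The sets here share libraries and members, so that rate cannot be applied to their number. A library was set apart in 6 of the 30. Of these, 3 were low values of EV-recipient synoviocyte replicate 4: 9446 RPM of eca-let-7f against 42841 to 46577 RPM in the other 3 libraries, 1458 RPM of eca-miR-98 against 6636 to 7652 RPM, and 18833 RPM of the family sum against 65140 to 73693 RPM. The same library had an eca-let-7d share of 5.26% of the family, above 0.116% to 0.967% in the other 3. EV-recipient chondrocyte replicate 1 had an eca-let-7c share of 0% of the family, below 8.94% to 12.3% in the other 4, on 201 family counts. EV-recipient chondrocyte replicate 4 had 281 RPM of eca-let-7d, above the 0 to 75.6 RPM of the other 4.

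The library marked SynoviocyteNEG, whose vesicles came from unlabelled donors, entered no test and still held 13920 RPM of family miRNA. Its eca-let-7f alone, at 7673 RPM, was far above the 148 RPM that a count of 0 allows a single miRNA there.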

How the results depend on the processing

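The family sum stayed higher in the EV-recipient synoviocytes in all 14 alternatives, at log2 ratios of 0.33 to 0.79. No member passed at an adjusted p in any of 23 alternatives. Among these, spike-in scaling and the exact permutation test called 0 of all 49 tested miRNAs at an adjusted p. Those settings therefore cannot tell the members from the rest. At an unadjusted p under 0.05 the count of members rose from 0 to 1 with DESeq2 and ranged from 0 to 4 with 1 library left out (1 without EV-recipient chondrocyte replicate 1, 4 without EV-recipient synoviocyte replicate 4). It was 4 of 6 with the shallowest library of each group left out, a setting chosen after seeing the data in which 23 of all 92 tested miRNAs were called. The count of partners rose from 0 to 1 with library size alone, with no filter, with the minimum asked in 4 libraries, with filterByExpr, with the exact permutation test and with both shallowest libraries left out, and ranged from 0 to 1 with 1 library left out (eca-miR-99a without chondrocyte replicate 1 or synoviocyte replicate 4, eca-miR-125b-5p without chondrocyte replicate 2). At an adjusted p it was 1 with no filter and with both shallowest libraries left out, and 0 to 1 with 1 library left out. The cause was not tested.

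Signs turned for 4 miRNAs. Against spike-in counts, eca-let-7c was at −0.089 and eca-miR-125b-5p at −0.11. eca-let-7g was at −0.070 with library size alone, −2.40 and −1.58 with limma at pseudocounts of 1 and 10, −0.057 with no filter, −0.41 with the replicate block, −0.20 in the exact permutation test, and −0.32 to 0.40 with 1 library left out. eca-miR-125a-5p was at −0.15, −0.14, −0.14, −0.079, −0.054 and −0.16 in the same settings, −0.080 with the minimum in 4 libraries, −0.033 with filterByExpr, and −0.14 to 0.12 with 1 library left out. The replicate block called 0 members and 0 partners, as did the fit without it.

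Of all tested miRNAs, edgeR called 9 of 49 at an unadjusted p (4 higher and 5 lower in the synoviocytes), against 12 (4 and 8) with library size alone, 10 (3 and 7) and 11 (4 and 7) with limma, 0 with spike-in scaling, 5 of 48 with the replicate block and 16 without synoviocyte replicate 4. Where more miRNAs were tested, the counts were 44 of 239 with no filter, 17 of 100 with filterByExpr, 18 of 81 without chondrocyte replicate 1 and 23 of 92 with both left out. Adjusted calls numbered 4 of 49, against 0 with spike-in scaling and in the exact permutation test, 14 of 239 with no filter, 1 with limma and with the replicate block, 8 of 81 without chondrocyte replicate 1 and 1 to 8 with 1 library left out. The median of all tested miRNAs moved by −0.13 with library size alone, 0.13 without eca-miR-21 in the library size and 0.14 with the replicate block. The members' median stayed 0.28 to 0.86 above it in every setting. Depth limits eca-let-7d, and all members in EV-recipient chondrocyte replicate 1.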
